A study of Mus musculus with 18 samples.

Results

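Ramp1 and 4 partner genes of the calcitonin gene-related peptide (CGRP) and adrenomedullin receptors were followed in GL261 brain tumours of mice: the accessory proteins Ramp1, Ramp2 and Ramp3, the receptor Calcrl and the ligand Adm. Ramp1 was chosen from measured values of these arrays, and the other 4 genes were taken as its known partners and ligand. All 5 genes were found among the 30854 genes of the deposited gene table, in 6 rows, because Ramp1 has a second row under the older name 9130218E19Rik. These rows were matched by their values to 8 probe signals per array. Of the 5 genes, 4 passed the detection filter and were among the 13796 genes tested, and Calcrl did not pass.

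The study grew tumours of GL261, a mouse glioma cell line, in the brains of WT C57BL/6 mice and of Pfp/Rag2-/- mice of the same strain, and asked how the immune status of the host shapes the tumour's RNA. Loss of Rag2 leaves a mouse without mature T and B cells, and loss of Pfp (perforin) impairs killing by natural killer and T cells, while macrophages and microglia remain. Tumours were taken 7 days after injection (2 arrays per host), 14 days after injection (2 arrays per host) or when the mice became symptomatic (3 arrays per host). Healthy brain of WT C57BL/6 mice without a tumour (2 arrays) and GL261 cells kept in culture (2 arrays) completed the 18 arrays. Each tumour RNA was a pool from 2 or 3 mice, GL261 is a single cell line, and the labels state neither the ages of the mice nor how many brains were used. No label states that the 2 culture arrays or the 2 brain arrays came from separate cultures or animals, so the spread between them may be technical. For each gene the p-values use a spread pooled within groups over all 18 arrays, tumour pools included. They therefore do not measure the spread of the culture or brain arrays alone.

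Calcrl is a G protein-coupled receptor that reaches the cell surface only together with a receptor activity-modifying protein. With Ramp1 it forms the receptor for CGRP, the sensory neuropeptide encoded by Calca and Calcb, and with Ramp2 or Ramp3 it binds adrenomedullin, the product of Adm. These receptors act mainly through cyclic AMP, widen blood vessels and, through Ramp2, support endothelial cells, while Adm is a textbook hypoxia-induced gene. In the brain Ramp1 is found in neurons and in vascular smooth muscle.

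The promoters of Ramp1, whose signal differed most between the symptomatic hosts among the members, and of Adm, the hypoxia-induced ligand, are shown from RefSeq on build GRCm38.p6, from 250 bases before the start site to 50 after it. Capitals mark the core hypoxia response motif, ACGTG or GCGTG, searched on both strands.
Ramp1 (chr1:91179572-91179871, plus strand): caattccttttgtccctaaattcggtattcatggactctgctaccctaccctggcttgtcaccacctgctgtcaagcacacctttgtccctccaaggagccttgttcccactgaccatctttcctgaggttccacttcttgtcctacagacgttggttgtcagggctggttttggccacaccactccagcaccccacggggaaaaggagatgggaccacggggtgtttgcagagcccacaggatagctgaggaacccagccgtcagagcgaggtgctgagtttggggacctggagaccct
Adm (chr7:110627407-110627706, plus strand): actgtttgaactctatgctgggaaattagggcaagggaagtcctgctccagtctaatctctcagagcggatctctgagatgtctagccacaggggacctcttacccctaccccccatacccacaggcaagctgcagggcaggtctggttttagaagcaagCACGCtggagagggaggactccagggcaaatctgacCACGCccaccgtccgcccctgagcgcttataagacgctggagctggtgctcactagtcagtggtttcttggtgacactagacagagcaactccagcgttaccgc
The Ramp1 window held 0 matches and the Adm window 2, both GCGTG on the minus strand, which reads CACGC as printed. The Ramp3 window also held 2 matches and the Calcrl window 1. Of 32851 promoter windows of this length, 43.8% held at least 1 match and 20.6% at least 2. A match describes the letters only and is no evidence of a bound factor.

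The arrays were comparable in detection, with 31.8% to 38.9% of the matched probes detected on each. Arrays of a group correlated at 0.967 to 0.996. Background before correction differed between groups: the median negative control signal ran from 58.2 on a culture array to 108.7 on a day 7 array. The number of arrays limits the precision. The T cell markers followed the host labels: at day 7, 6 of 7 tested (Cd3d, Cd3e and Cd8b1 among them) were higher in WT hosts, and 5 of 7 at each later stage. The deleted genes themselves gave no check. The Rag2 probe was detected on 0 of 14 tumour arrays, and a Prf1 probe (Prf1 encodes perforin) was detected on all 7 arrays of each host, with its position relative to the deletion unknown. The neuron markers Stmn2 and Gad1 were detected on both brain arrays and on neither culture array. The 2 Pfp/Rag2-/- pools of day 7 stood apart in choroid plexus markers, at 66.2% and 99.8% of healthy brain in summed signal against 16.4% and 30.0% in the WT pools of that day.

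Ramp1 gives Calcrl its affinity for CGRP; the gene lies on chromosome 1 (chr1:91179822-91225196, build GRCm38.p6). Its normalized signal on the log2 scale was 10.73 on both arrays of healthy brain and 5.59 and 5.53 in cultured GL261 cells, where it was not detected above the negative controls (detection p 0.058 and 0.067). At day 7 it was 9.54 and 9.47 in WT hosts and 9.54 and 9.19 in Pfp/Rag2-/- hosts. At day 14 it was 8.93 and 7.73 in WT hosts and 9.07 and 8.69 in Pfp/Rag2-/- hosts. In symptomatic mice it was 7.02, 7.47 and 7.30 in WT hosts and 9.77, 10.14 and 10.06 in Pfp/Rag2-/- hosts. The symptomatic groups were thus far apart, with all 3 Pfp/Rag2-/- pools above all 3 WT pools, while the hosts overlapped at both earlier stages.

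The order of the Ramp1 group means ran from healthy brain through symptomatic Pfp/Rag2-/- tumours, both day 7 groups, both day 14 groups and symptomatic WT tumours down to cultured cells. Neighbours in this order did not overlap, except WT with Pfp/Rag2-/- hosts at day 7 and again at day 14. Because Ramp1 was chosen from these values, the levels and the differences that follow are descriptions with a standard error (SE) and no p-value. In the deposited signals, which carry no background correction or scaling, symptomatic WT tumours had 176, 226 and 205 units and symptomatic Pfp/Rag2-/- tumours 850, 1060 and 943, again without overlap. The order of the groups differed there: the symptomatic Pfp/Rag2-/- mean (951.0 units) lay below the day 7 means of WT (1090.5) and Pfp/Rag2-/- hosts (994.3).

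**Figure D1:**
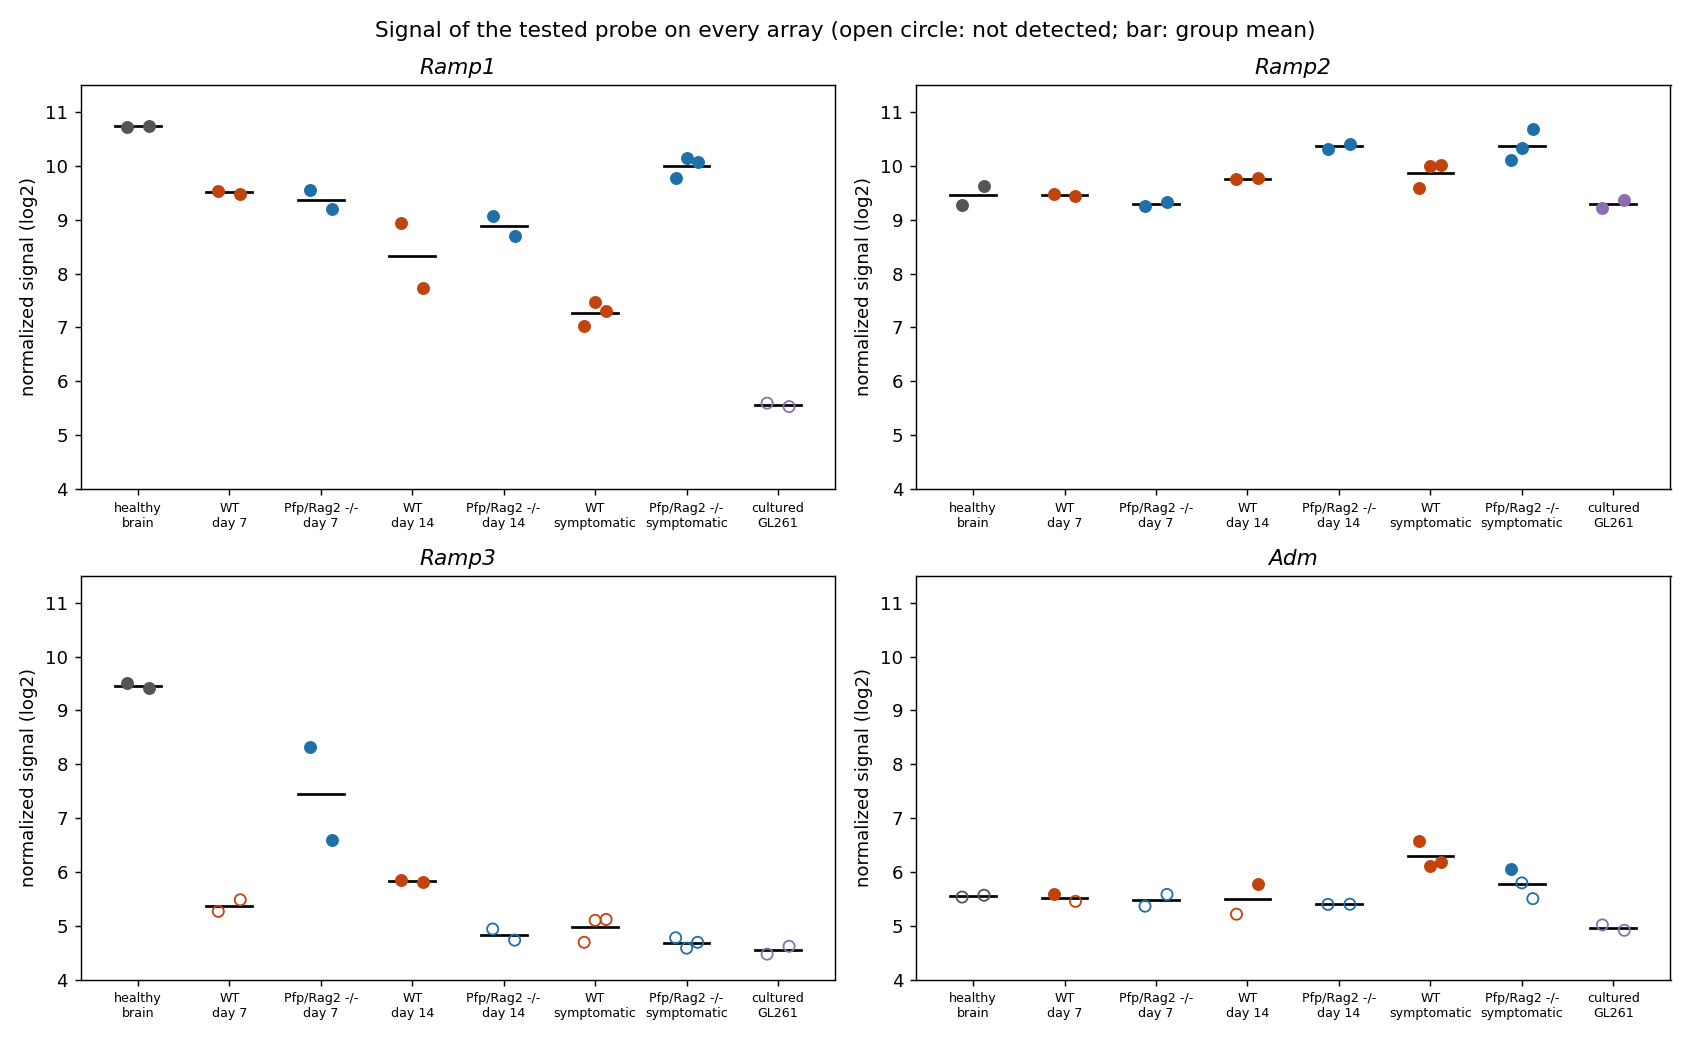
Normalized log2 signal (vertical axis) of Ramp1, Ramp2, Ramp3 and Adm on each of the 18 arrays, by group; filled circles are detected signals, open circles are not detected, and bars are group means. Ramp1 separates the symptomatic hosts, Ramp2 is detected on every array, Ramp3 is high in healthy brain and on the 2 Pfp/Rag2-/- arrays of day 7, and Adm is near the detection limit.

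Between hosts, the Ramp1 signal in WT minus Pfp/Rag2-/- tumours was 0.14 (log2, SE 0.30) at day 7, -0.55 (SE 0.30) at day 14 and -2.73 (SE 0.24) at the symptomatic stage, the last being 6.63-fold lower in WT hosts (n = 3 and 3 arrays). The day 14 value rested on 1 WT pool: it was 0.05 without WT replicate 2 and -1.15 without WT replicate 1. The host difference changed by -0.69 (SE 0.42) from day 7 to day 14 and by -2.18 (SE 0.38) from day 14 to the symptomatic stage. Without WT replicate 1 of day 14 the later change was -1.58, and without WT replicate 2 of day 14 it was -2.78. Over all 13796 genes, limma called 0 genes (0%) for that later change, although 2187 genes had an unadjusted p under 0.05. That count was 416 without WT replicate 2 of day 14, 125 without Pfp/Rag2-/- replicate 1 of day 14, and 0 to 3 without any other single array of that comparison. As the tissue is bulk, fewer cells that express a gene and less RNA per cell cannot be told apart for any member.

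Over time the Ramp1 differences of the hosts had opposite signs. In WT hosts the symptomatic tumours were 2.24 lower (log2, SE 0.27) than the day 7 tumours, and in Pfp/Rag2-/- hosts they were 0.62 higher (SE 0.27), a direction that turned to -0.06 in the series values without scaling. Against cultured cells, where Ramp1 had only an upper bound, symptomatic tumours were at least 2.02-fold higher in WT hosts and at least 13.4-fold higher in Pfp/Rag2-/- hosts. Such bounds set the mean of the brighter group against the lowest signal counted as detected on each dim array, or the probe's own signal where higher. Cultured cells were at least 22.3-fold lower than healthy brain.

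On a linear scale with healthy brain as 100%, Ramp1 stood at 42.3% ± 1.44 (SD, n = 2) in WT and 38.6% ± 6.70 in Pfp/Rag2-/- tumours at day 7, and at 19.9% ± 11.6 and 27.3% ± 5.25 at day 14. In symptomatic mice it was 8.25% ± 1.44 (SD, n = 3) in WT and 59.9% ± 7.95 in Pfp/Rag2-/- tumours. Summed neuron markers (5 of 8 listed genes measured, Syt1, Stmn2, Gad1, Slc17a7 and Camk2a) stood at 34.8% and 36.3% at day 7 and at 3.68% ± 0.80 in WT and 7.04% ± 4.41 in Pfp/Rag2-/- tumours when symptomatic. The 3 symptomatic Pfp/Rag2-/- pools ranged from 3.99% to 12.1% for the neuron sum and from 50.9% to 66.0% for Ramp1. Of the 5 neuron markers 0 passed the test between symptomatic hosts, where 17.1% of all genes were called. The means of all 5 were nevertheless lower in WT hosts, the direction of Ramp1. Their median difference was -0.84 (log2, WT minus Pfp/Rag2-/-) against -0.03 over all genes. The part of neurons in the Ramp1 difference was not tested.

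When symptomatic, summed macrophage and T cell markers were higher in WT hosts, opposite to Ramp1, and the pericyte sums overlapped. Summed macrophage and microglia markers ranged from 210.53% to 443.33% of healthy brain in symptomatic WT tumours and from 105.3% to 113.98% in Pfp/Rag2-/- tumours. Of these 9 genes 6 were higher in WT hosts, where 17.1% of all genes were called. Summed T cell markers ranged from 587.07% to 896.73% and from 211.03% to 272.22%. The T cell sum was also 252.66% in cultured GL261 cells, where of its 7 genes only Lck was detected. Pericyte and smooth muscle markers (4 of 7 measured) ranged from 24.1% to 44.5% and from 33.1% to 68.1%. Of these 4, only Rgs5 was detected in every tumour group. Pdgfrb and Myh11 were detected on no tumour array, and Des on at most 2 arrays of any group. Rgs5, a pericyte gene, was the 1 of 4 called, lower in WT hosts (-1.09, SE 0.34, adjusted p = 0.0427, limma). The part of these cells in the Ramp1 difference was not tested. Across the 14 tumour arrays, which share scaling and host, the Pearson correlation of Ramp1 was 0.277 with the neuron sum, 0.394 with the pericyte sum and -0.662 with the macrophage sum, given as descriptions.

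**Figure D2:**
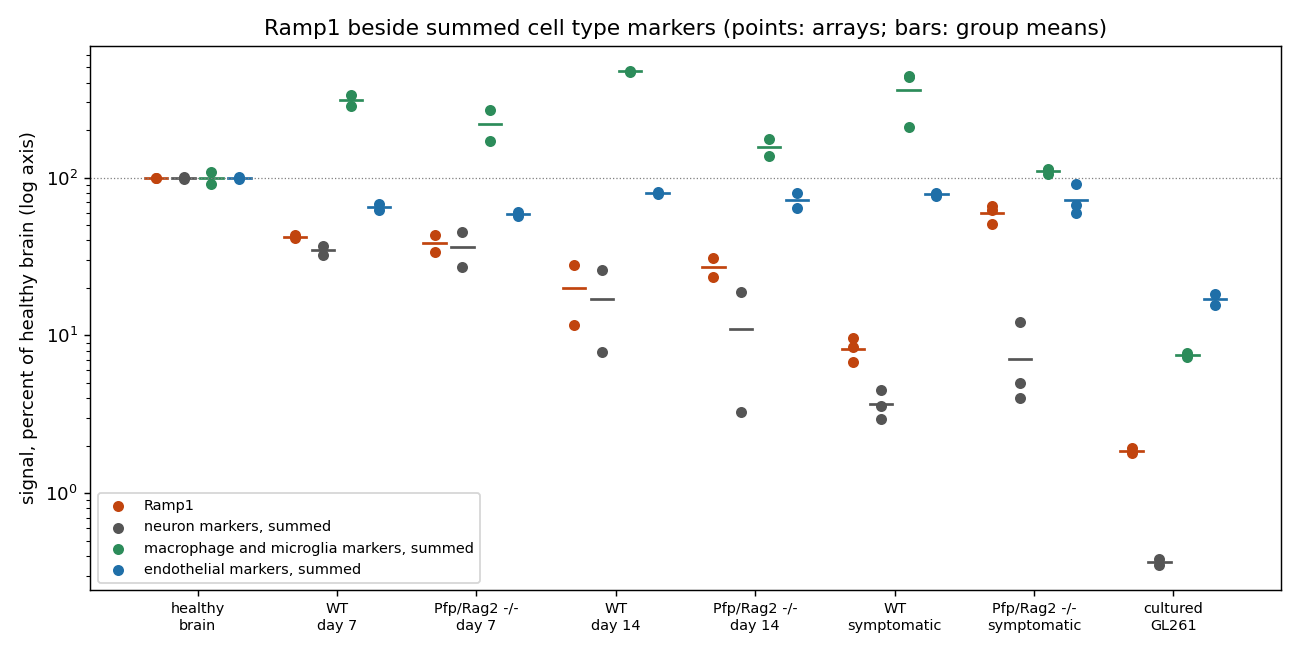
Signal as a percent of the mean of healthy brain (vertical log axis) for Ramp1 and for the summed markers of neurons, macrophages and microglia, and endothelial cells in the 8 groups; points are arrays and bars are group means. In symptomatic Pfp/Rag2-/- tumours Ramp1 lies at 50.9% to 66.0% while the neuron sum lies at 3.99% to 12.1%.

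The genes whose signal followed that of Ramp1 most closely over the 18 arrays were Arsb (Pearson r 0.966), a lysosomal sulfatase, Plppr5 (0.959), 1110046J11Rik (0.959), Gnaz (0.955), a G protein alpha subunit, and Mdga2 (0.955). The groups differ in their mix of brain and tumour cells, which all these correlations share. The second Ramp1 row, 9130218E19Rik, was dim: its probe was detected on 3 of 18 arrays, both of healthy brain and 1 WT array of day 7. In symptomatic tumours it was not detected, at 4.71, 4.63 and 4.73 in WT and 5.03, 5.21 and 5.66 in Pfp/Rag2-/- hosts. The direction there was that of the main Ramp1 probe, at signals not above background.

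Ramp2, which turns Calcrl into an adrenomedullin receptor (chr11:101246334-101248250), was detected on all 18 arrays, cultured GL261 cells included. Its normalized log2 signal was 9.27 and 9.63 in healthy brain and 9.22 and 9.36 in cultured cells. At day 7 it was 9.48 and 9.44 in WT hosts and 9.25 and 9.33 in Pfp/Rag2-/- hosts. Healthy brain overlapped cultured cells and each day 7 group, the 2 day 7 groups did not overlap each other, and cells minus brain was -0.16 (SE 0.19, adjusted p = 0.466).

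At the later stages Ramp2 was highest in Pfp/Rag2-/- hosts. At day 14 it was 9.75 and 9.77 in WT and 10.31 and 10.40 in Pfp/Rag2-/- tumours, and when symptomatic 9.59, 9.99 and 10.01 against 10.11, 10.34 and 10.68. The hosts did not overlap at either stage. WT minus Pfp/Rag2-/- was 0.17 (log2, SE 0.19, adjusted p = 0.775) at day 7, -0.60 (SE 0.19, adjusted p = 0.0512) at day 14 and -0.51 (SE 0.15, adjusted p = 0.0354) when symptomatic, by limma with Benjamini-Hochberg adjustment over all genes. Only the symptomatic difference passed, and it was lost without WT replicate 1 (-0.37, adjusted p = 0.12), without Pfp/Rag2-/- replicate 2 (-0.53, adjusted p = 0.08) or without Pfp/Rag2-/- replicate 3 (-0.36, adjusted p = 0.15).

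Of the 3 members tested between hosts with a p-value (Ramp2, Ramp3 and Adm), 1 was called at day 7 (Ramp3, lower in WT hosts), 0 at day 14 and 1 in symptomatic mice (Ramp2, lower in WT hosts). Among all 13796 genes 3.41% were called at day 7 (471 genes), 13.7% at day 14 (1888) and 17.1% at the symptomatic stage (2364). The members were chosen with earlier results of these arrays known. With 0 called at day 14, Ramp2 (adjusted p = 0.0512) and Ramp3 (0.0969) were the nearest in limma, and 3869 genes had an unadjusted p under 0.05 in that comparison.

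Ramp2 rose with time in Pfp/Rag2-/- hosts, by 1.09 from day 7 to the symptomatic stage (log2, SE 0.17, adjusted p = 6.02e-04), in a comparison where 47.8% of genes were called. Without scaling, in the series values, it was 0.37 (adjusted p = 0.047). In WT hosts the same difference was 0.40 (SE 0.17, adjusted p = 0.065), with 51.1% of genes called, and 0.54 (adjusted p = 0.02) without symptomatic replicate 1. In the series values the WT difference was -0.21. Symptomatic tumours exceeded cultured cells by 1.08 (SE 0.17, adjusted p = 2.88e-04) in Pfp/Rag2-/- hosts, where 35.3% of genes were called. In WT hosts they exceeded them by 0.57 (SE 0.17, adjusted p = 0.0202), where 33.5% of genes were called. This last call was lost when WT replicate 2 (adjusted p = 0.063), WT replicate 3 (0.071), cells replicate 1 (0.14) or cells replicate 2 (0.058) was left out.

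Over the 14 tumour arrays the Pearson correlation of Ramp2 was 0.823 with summed pericyte and smooth muscle markers, 0.501 with endothelial, -0.675 with neuron, -0.766 with astrocyte and -0.661 with oligodendrocyte markers, as descriptions. In the pericyte and smooth muscle sum only Rgs5 was detected in every tumour group, and Pdgfrb and Myh11 were detected in no tumour group. Endothelial markers, the cells in which Ramp2 is best known, were 78.7% ± 1.92 (SD, n = 3) of healthy brain in symptomatic WT and 72.7% ± 16.2 in Pfp/Rag2-/- tumours. Of 9 endothelial genes tested 2 were higher in symptomatic WT than Pfp/Rag2-/- hosts (17.1% of all genes were called), Pecam1 by 0.75 (SE 0.20, adjusted p = 0.0198) and Emcn by 0.67 (SE 0.16, adjusted p = 0.0094). In cultured cells Ramp2 was 89.0% ± 6.26 of brain (SD, n = 2), and of the 9 endothelial genes only Flt1 was detected. The part of these cells in the Ramp2 difference was not tested.

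**Figure D3:**
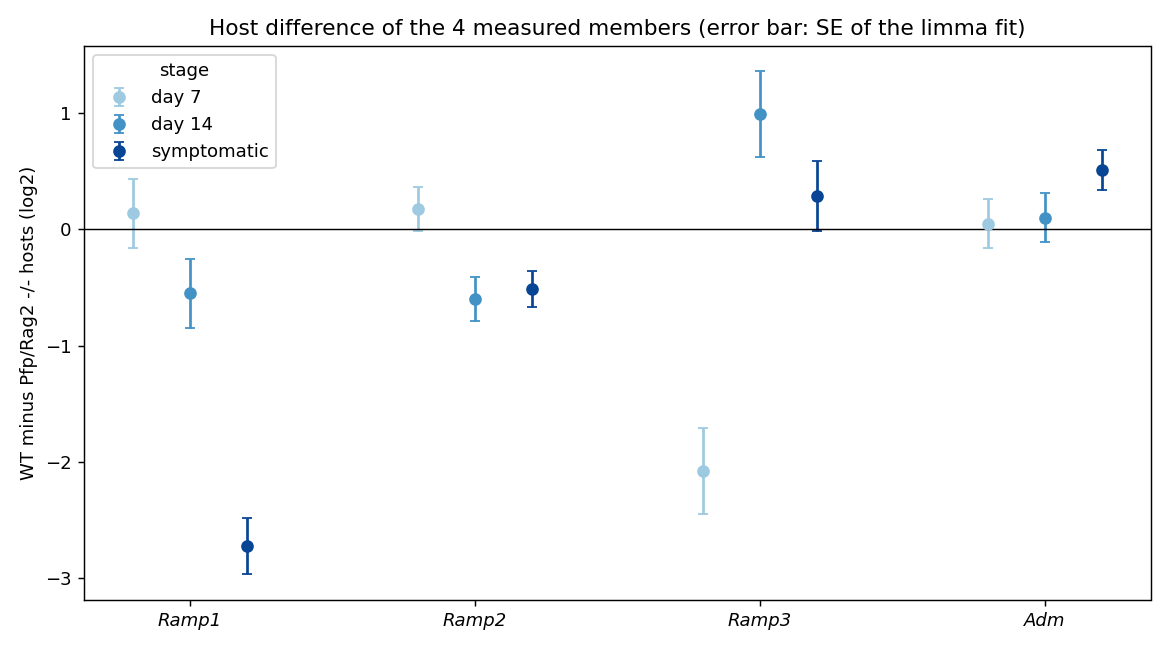
Difference in normalized log2 signal between WT and Pfp/Rag2-/- tumours (vertical axis; below 0 is lower in WT hosts) for the 4 measured members at day 7, day 14 and the symptomatic stage; error bars are the SE of the limma fit. Ramp1 reaches -2.73 when symptomatic, Ramp2 is -0.60 and -0.51 at the later stages, and Ramp3 is -2.08 at day 7.

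Ramp3, the third accessory protein (chr11:6658506-6677478), also pairs with Calcrl to bind adrenomedullin. Its normalized log2 signal was 9.51 and 9.41 in healthy brain and 4.48 and 4.62, not detected, in cultured cells, at least 9.27-fold lower (adjusted p = 7.59e-08, limma, with 75.9% of genes called). At day 7 it was 5.27 and 5.48, not detected, in WT hosts and 8.32 and 6.59 in Pfp/Rag2-/- hosts. At day 14 it was detected only in WT hosts, at 5.85 and 5.81, against 4.94 and 4.74 in Pfp/Rag2-/- hosts. Symptomatic tumours of both hosts lay between 4.59 and 5.12 with no array detected.

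The day 7 difference of Ramp3 was -2.08 (WT minus Pfp/Rag2-/-, log2, SE 0.37, adjusted p = 0.00746), at least 3.57-fold lower in WT hosts. It was -1.97 with an adjusted p of 0.086 without WT replicate 1, and -1.21 (adjusted p = 0.0081) without Pfp/Rag2-/- replicate 1, the pool at 8.32; without Pfp/Rag2-/- replicate 2 it was -2.94. At day 14 the difference was 0.99 the other way (SE 0.37, adjusted p = 0.0969), with no fold given because the Pfp/Rag2-/- arrays were not detected. The change between these stages was 3.07 (SE 0.52, adjusted p = 0.0154), where 2.36% of all genes were called (325 genes, and 14 to 1334 without 1 array). Without 1 array the change ranged from 2.21 to 3.93. It did not pass without WT replicate 1 of day 7 (2.96, adjusted p = 0.075) or without Pfp/Rag2-/- replicate 2 of day 14 (2.97, adjusted p = 0.062). From day 7 to the symptomatic stage Ramp3 fell in Pfp/Rag2-/- hosts, at least 3.01-fold (adjusted p = 2.1e-04). The log2 difference behind this bound, -2.77, was -1.90 without Pfp/Rag2-/- replicate 1 of day 7 and -3.63 without replicate 2.

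At day 7 choroid plexus markers and Ramp3 were both lower in WT hosts. Of the 8 markers 5 were called lower (Folr1, Kcne2, Sostdc1, Aqp1 and Otx2), where 3.41% of all genes were called. The Pfp/Rag2-/- pool with 99.8% of the choroid plexus sum of healthy brain had 44.0% of its Ramp3 signal, and the pool with 66.2% had 11.7%, against 3.28% and 4.17% of Ramp3 in the WT pools. Over the 14 tumour arrays the Pearson correlation of Ramp3 was 0.863 with the choroid plexus sum and 0.658 with the neuron sum, and those 2 pools held the highest values of both Ramp3 and the choroid plexus sum. Outside those pools the values did not go together on each array. Symptomatic Pfp/Rag2-/- replicate 1 had 36.91% of the choroid plexus sum of healthy brain and 1.67% of its Ramp3 signal. WT replicate 1 of day 14 had 13.08% and 6.05%. The sum is linear, and its brightest genes in healthy brain were Ttr (14.83 log2) and Enpp2 (13.64). Enpp2 was also detected in cultured GL261 cells (11.59), where the sum was 6.9%. On the symptomatic Pfp/Rag2-/- arrays Ttr and Enpp2 were detected on all 3 and Kl and Aqp1 on 2. Folr1, Kcne2 and Otx2 were detected there on 1 array each and Sostdc1 on 0. The part of choroid plexus tissue in the Ramp3 difference was not tested. Ramp3 has 3 matched probes: a second one gave 7.54 and 5.54 at day 7 in Pfp/Rag2-/- hosts and 5.06 and 4.92 in WT hosts, a difference of -1.55 with an adjusted p of 0.07, and the third was detected on 0 of 18 arrays.

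**Figure D4:**
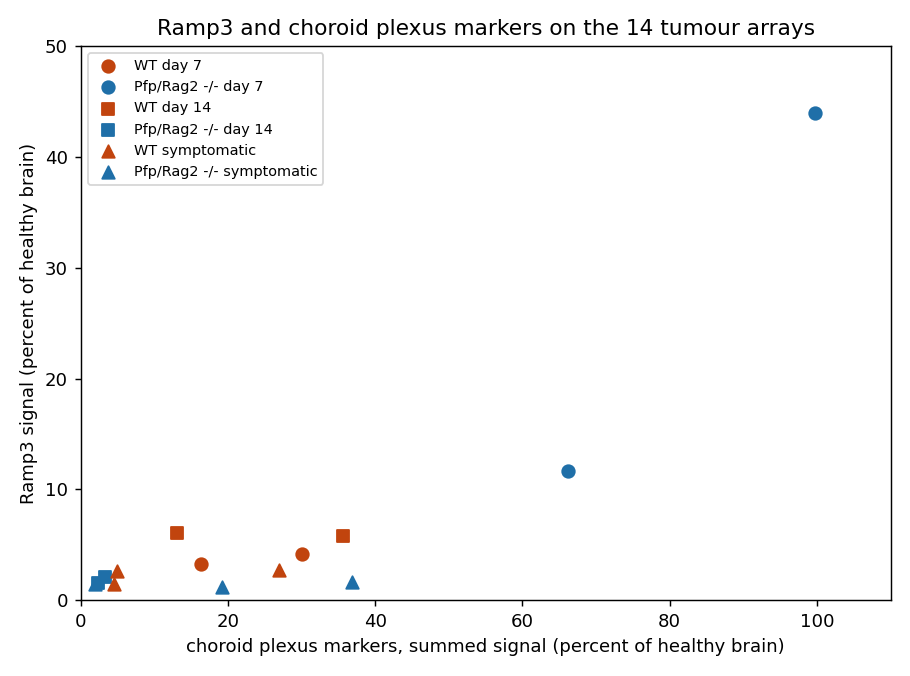
Ramp3 signal (vertical axis) against the summed signal of 8 choroid plexus markers (horizontal axis), both as a percent of healthy brain, on the 14 tumour arrays; colour is the host and the marker shape is the stage. The 2 Pfp/Rag2-/- pools of day 7 lie apart at 66.2% and 99.8% on the horizontal axis, and on the other arrays Ramp3 is at most 6.05% of brain.

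Calcrl, the receptor with which all 3 accessory proteins pair (chr2:84330626-84425405), was not measured above background. Its single probe lay between 4.41 and 4.60 on the log2 scale and was detected on 0 of 18 arrays, healthy brain included. No difference can be read from it, and a probe at background does not show that the gene was silent.

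Adm, the adrenomedullin gene (chr7:110627657-110629820), lay near the detection limit and was detected on 6 of 18 arrays. Its normalized log2 signal was 6.59, 6.12 and 6.19 in symptomatic WT tumours, all detected, and 6.05, 5.80 and 5.51 in symptomatic Pfp/Rag2-/- tumours, of which the first was detected. In healthy brain it was 5.53 and 5.57 and in cultured cells 5.02 and 4.92, none detected. At days 7 and 14 all 8 arrays lay between 5.22 and 5.79.

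In WT hosts normalized Adm rose from day 7 to the symptomatic stage by 0.77 (log2, SE 0.19, limma adjusted p = 0.00539), with 1 of the 2 day 7 arrays detected. The deposited signals, without background correction or scaling, did not rise. They were 152.2 and 152.6 units at day 7 and 149.9, 131.0 and 133.3 when symptomatic. In Pfp/Rag2-/- hosts, with no day 7 array and 1 of 3 symptomatic arrays detected, Adm was at least 1.09-fold higher when symptomatic (adjusted p = 0.196). Whether these 2 changes differ was not tested. At days 7 and 14, 1 of 2 WT arrays and no Pfp/Rag2-/- array was detected, and no fold between hosts is given (adjusted p = 0.96 and 0.795). The host difference was 0.51 (SE 0.17, adjusted p = 0.0579) in symptomatic mice, where the 3 WT pools lay just above the 3 Pfp/Rag2-/- pools. Without Pfp/Rag2-/- replicate 1 the symptomatic difference passed (0.65, adjusted p = 0.037). Symptomatic WT tumours exceeded cultured cells at least 1.04-fold (adjusted p = 1.29e-04). The genes most like Adm over the 18 arrays were D930014G18Rik (Pearson r 0.935), B230310H07Rik (0.853), 2810426P10Rik (0.799), Trps1 (0.797) and Cdk12 (0.792).

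Of 12 other hypoxia-induced genes tested besides Adm, 0 passed between hosts at day 7 and 0 at day 14 by limma. At the symptomatic stage, where 17.1% of all genes were called, 2 of 12 were higher in WT hosts: Car9, a carbonic anhydrase, by 1.21 (SE 0.34, adjusted p = 0.0252), and Slc2a1, the glucose transporter GLUT1, by 0.45 (SE 0.14, adjusted p = 0.0404). The list's median difference there was 0.20 against -0.03 over all genes. Egln3, an oxygen-sensing prolyl hydroxylase, was 0.44 (SE 0.19, adjusted p = 0.133) and Pgk1, a glycolytic enzyme, 0.20 (SE 0.09, adjusted p = 0.142).

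Of the other ligands, Calca, which encodes alpha-CGRP and calcitonin, had 1 of its 4 probes above background, at 7.32 and 7.07 in healthy brain. Its host differences were -0.55 (SE 0.30, adjusted p = 0.429), -0.02 (SE 0.30, adjusted p = 0.974) and -0.07 (SE 0.24, adjusted p = 0.888) at the 3 stages. Adm2, which encodes intermedin, was detected on 0 day 7 arrays and on all 6 symptomatic arrays. Its normalized signal rose with time at least 1.82-fold in WT hosts (limma adjusted p = 0.00619) and at least 1.39-fold in Pfp/Rag2-/- hosts (adjusted p = 0.0162). The deposited mean signal of Adm2 went from 138.8 to 147.6 units in WT hosts and from 134.3 to 115.8 in Pfp/Rag2-/- hosts. Its symptomatic host difference was 0.35 (SE 0.28, adjusted p = 0.451). Calcb and Iapp did not pass the filter.

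Among the receptor-like genes, Crcp, a component associated with CGRP receptor signalling, was detected on all 18 arrays and had host differences of -0.06 (SE 0.13, adjusted p = 0.908), -0.22 (SE 0.13, adjusted p = 0.309) and -0.02 (SE 0.11, adjusted p = 0.943). It was higher in cultured cells than in brain by 0.73 (SE 0.13, adjusted p = 1.78e-04). The calcitonin receptor Calcr, Ackr3 and Gpr182 did not pass the filter.

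Of 6 genes tested that process or degrade these peptides, 0 passed between hosts at day 7, 1 at day 14 and 1 at the symptomatic stage, where 3.41%, 13.7% and 17.1% of all genes were called. At day 14 Furin, a proprotein convertase, was higher in WT hosts by 0.42 (SE 0.11, adjusted p = 0.0194). In symptomatic mice Cpe, the carboxypeptidase of neuropeptide processing, was lower in WT hosts (-1.32, SE 0.29, adjusted p = 0.00713). Pam, which amidates CGRP and adrenomedullin, was -0.58 (SE 0.23, adjusted p = 0.104), and Mme, the peptidase neprilysin, was detected in neither symptomatic group. The list's median was -0.23 against -0.03 over all genes.

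In the pathway from the receptor to cyclic AMP, 17 of 24 genes were tested, and 0 passed between hosts at day 7, 3 at day 14 and 3 at the symptomatic stage, beside 3.41%, 13.7% and 17.1% of all genes. At day 14 Arrb2, a beta-arrestin, was higher in WT hosts by 1.00 (SE 0.16, adjusted p = 0.00122), Pde4b, a cyclic AMP phosphodiesterase, exceeded its Pfp/Rag2-/- level by 0.84 (SE 0.24, adjusted p = 0.0373), and the adenylyl cyclase Adcy6 was lower (-0.81, SE 0.16, adjusted p = 0.00391). In symptomatic mice 3 were higher in WT hosts: Pde4b by 0.81 (SE 0.20, adjusted p = 0.0133), Arrb2 by 0.53 (SE 0.13, adjusted p = 0.0145) and the adenylyl cyclase Adcy4 by 0.69 (SE 0.19, adjusted p = 0.0231). Adcy6 was -0.39 (SE 0.13, adjusted p = 0.054). The medians were 0.31 at day 14 and -0.20 in symptomatic mice, against -0.06 and -0.03 over all genes. Macrophage and microglia markers were higher in WT hosts at the same stages (7 of 9 at day 14 and 6 of 9 when symptomatic), and their part in these differences was not tested.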

How the data were processed

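Total RNA was read on Illumina mouse WG-6 v2.0 arrays (18 samples), per the labels. The authors deposited probe signals as intensity values on a linear scale with no background correction or scaling, as the values show, and a series matrix with the same intensity values for 10466 probes, limited at 20000. Medians per array of the full set of probe signals ran from 66.9 to 133.0. The authors also deposited a gene table, written with decimal commas and in the same signal units, with the mean, lowest and highest signal of each group. It was made in GenomeStudio 1.9.0 with no normalization, per the file headers.

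The probe signals carry no gene names. Of 30854 genes 29629 (96.0%) were matched to probes through the 24 group values of the gene table, and names were brought to GRCm38.p6 symbols. Signals were background-corrected with 936 negative control probes, quantile scaled and put on the log2 scale (neqc, offset 16, limma 3.58.1, R 4.3.3). The filter required a detection p below 0.01 on 2 or more arrays, and each gene was read from its brightest probe by mean signal. One mean per group was fitted over all 18 arrays for 10 comparisons (lmFit, eBayes; adjusted p under 0.05, Benjamini-Hochberg). The fit was tested on simulated data. The members, gene lists and markers were chosen with earlier results of these data known. Named genes were all 5 members, the 5 genes most correlated with Ramp1 and Adm, and up to 4 of smallest p per list. Percentages of brain used linear corrected signals less the offset. Alternatives changed the background, scaling, filter, probe, arrays and block. Same-numbered arrays of the hosts deviated together at day 14 but not at the other stages, and the main fit used no pairing. Numbers follow the sample titles; for symptomatic Pfp/Rag2-/- tumours the descriptions swap 2 and 3, which affects which array is meant by either number and the replicate block. Protein sequences were not used here.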

Additional observations from a re-analysis of the deposited data

Results flagged for a closer look

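The host difference of Ramp3 (WT minus Pfp/Rag2-/-) was -2.08 on the log2 scale at day 7 and 0.99 at day 14, and the test of the change between these stages gave 3.07 (SE 0.52, limma adjusted p = 0.0154, over 2 arrays per host and stage). The WT arrays of day 7 and the Pfp/Rag2-/- arrays of day 14 were not above background. These values come from the brightest Ramp3 probe. A second probe was not detected at day 14, where the hosts overlapped (5.28 and 4.59 in WT, 4.74 and 4.52 in Pfp/Rag2-/- hosts). The third probe was detected on no array. The 2 Pfp/Rag2-/- pools of day 7 also had 66.2% and 99.8% of the choroid plexus marker signal of healthy brain. The part of that tissue was not tested.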

How the results depend on the processing

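The symptomatic host difference of Ramp1 kept its direction in all alternatives and moved from -2.73 to -2.29 with no background correction, -2.48 with offset 50, -2.24 in the unscaled series values and -0.61 in the second row of the gene table, which also gave 0.46 for 0.14 at day 7. The day 14 difference of Ramp2 (-0.60, adjusted p = 0.0512, limma) passed at -0.56 with no background correction, -0.58 with offset 50, -0.58 in the series values and -0.60 with the replicate block (adjusted p = 0.013). The deviations of same-numbered arrays correlated at 0.0568 at day 7, 0.712 at day 14 and -0.144, 0.0789 and -0.24 when symptomatic. Same-numbered arrays of the hosts thus deviated together at day 14, and whether they share a batch or pairing was not tested. The symptomatic difference of Ramp2 did not pass at -0.51 with no detection filter, -0.41 in the series values, -0.51 in a fit of the compared arrays alone and -0.51 in a fit of tumour arrays alone. The day 7 difference of Ramp3 did not pass at -2.08 with only the arrays compared, nor with its other probes (-0.16 and -1.55), one of which turned the symptomatic value to -0.03. Of the other 85 host differences of members under these alternatives, those with a p-value kept their direction and their side of the threshold. Those of Ramp1, which has no p-value, moved by less than the SD within the compared groups. In its second row the day 14 means were 4.87 in WT and 4.89 in Pfp/Rag2-/- hosts, beside a main difference of -0.55.

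Leaving out 1 array in turn, host differences at day 7, day 14 and the symptomatic stage ranged from -0.04 to 0.31, -1.15 to 0.05 and -2.84 to -2.61 for Ramp1, from 0.13 to 0.22, -0.64 to -0.55 and -0.64 to -0.36 for Ramp2, from -2.94 to -1.21, 0.89 to 1.10 and 0.21 to 0.42 for Ramp3, and from -0.06 to 0.16, -0.18 to 0.39 and 0.37 to 0.65 for Adm. Calls numbered 128 to 1232, 880 to 2300 and 1563 to 2274. Lowest counts of the other comparisons were 4387 for 7055 calls from day 7 to the symptomatic stage in WT hosts (without WT replicate 1 of day 7), 3164 for 6597 in Pfp/Rag2-/- hosts (without their replicate 1 of day 7), and 2953 for 4620 and 3020 for 4872 in symptomatic WT and Pfp/Rag2-/- tumours against cultured cells (without cells replicate 1; 3146 for 4872 without cells replicate 2). The change from day 7 to day 14 had 14 (without WT replicate 1 of day 7) to 1334 calls (without Pfp/Rag2-/- replicate 2 of day 7). They were 64 at day 7 and 175 at day 14 with only the arrays compared, 287 at day 7 with only tumour arrays, and 1570 when symptomatic in the series values. Directions turned for Ramp2 in symptomatic minus day 7 WT tumours (-0.21, series values), cells minus brain (0.02 without brain replicate 2, with a range of -0.33 to 0.02 without 1 array) and the change from day 14 to the symptomatic stage (-0.03 with loess scaling, and -0.04 to 0.24 without 1 array). They turned for Ramp1 in symptomatic minus day 7 Pfp/Rag2-/- tumours (-0.06, series values). For Adm the change from day 7 to day 14 turned to -0.02, -0.06 and -0.23 without 1 array (range -0.23 to 0.33), and the day 7 difference to -0.02 and -0.06. For Ramp3, in groups where it was not detected, symptomatic minus cultured values turned to -0.12 with loess scaling, and to -0.01 and -0.05 with another probe, which gave 0.00 for symptomatic minus day 7 in WT hosts. The causes were not tested. Signal over background limits Adm, Calcrl and the low Ramp3 values.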
